A study of Drosophila melanogaster with 4 samples.

Results

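The LSD1-enriched regions described here lie at the centromere ends of 4 chromosome arms of Drosophila melanogaster. They were chosen by position alone, as the regions of the authors' combined list that start within the 2 Mb next to the centromere on 2L, 3L, 3R and X, and they number 382 of 9018 regions in the combined list. Arms 2L, 3L and X are numbered towards the centromere, so their windows are 2L:21011545-23011544, 3L:22543558-24543557 and X:20422828-22422827, and 3R is numbered away from it, so its window is 3R:1-2000000 (all positions follow FlyBase release 5). The rest of the same arms held 6615 regions and served for comparison.

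Whole wild-type Oregon-R embryos aged 14 to 16 h were the source of all samples, so that cells of every tissue were mixed. There were 2 samples immunoprecipitated with the antibody Q3430 against LSD1 from chromatin crosslinked with 1.8% formaldehyde (ChIP), and 2 samples of input DNA. Enriched regions were deposited as a separate list for each ChIP sample (3951 regions in replicate 1, 2607 in replicate 2) and as a combined list. Whether the replicates are separate collections of embryos is not stated, so their spread may be technical, and the depth per sample is unknown.

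LSD1 is an enzyme that takes methyl groups off lysine 4 of histone H3, a mark found at active promoters and enhancers. The fly protein was identified as a suppressor of position-effect variegation, the patchy silencing of genes placed next to heterochromatin. It is known for its part in setting the border between euchromatin and heterochromatin in the embryo. The chromosome arms pass into pericentromeric heterochromatin near the centromere, where genes are sparse, transposon remnants are dense, and nucleosomes carry methylation of lysine 9 of histone H3 and the protein HP1. How much of this repeat-rich sequence was reached by the mapped reads is unknown here, so that little LSD1 and few placed reads cannot be told apart where regions are few.

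LSD1 regions were sparse at the centromere ends of 2L, 3L and X and dense at that of 3R. The combined list had 84 regions in the window of 2L, 61 in that of 3L, 57 in that of X and 180 in that of 3R. On 2L this was 42.0 regions per Mb (exact 95% Poisson interval 33.5 to 52.0) against 72.96 in the rest of the arm (69.4 to 76.7), a ratio of 0.576 (0.457 to 0.717). The density on 3L was 30.5 per Mb (23.3 to 39.2) against 77.7 (74.1 to 81.4), a ratio of 0.393 (0.299 to 0.507). On X it was 28.5 per Mb (21.6 to 36.9) against 73.4 (69.8 to 77.3), a ratio of 0.388 (0.292 to 0.506). The direction was opposite on 3R, with 90.0 per Mb (77.3 to 104.2) against 70.7 (67.5 to 73.99), a ratio of 1.27 (1.09 to 1.48). Intervals here and below take in counting error alone, and adjacent regions are not separate samples.

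Each replicate list showed the same split between the arms. In replicate 1 the window of 2L held 32 regions, that of 3L 30, that of X 15 and that of 3R 90. In replicate 2 the numbers were 21, 26, 11 and 50 in the same order. Relative to the rest of the arm, the density on X was 0.244 in replicate 1 and 0.235 in replicate 2 (mean 0.240 ± 0.00623, SD, n = 2). The corresponding ratio on 2L was 0.494 and 0.512 (mean 0.503 ± 0.0124), and on 3L it was 0.454 and 0.706 (mean 0.580 ± 0.178). On 3R it was 1.47 and 1.21 (mean 1.34 ± 0.188). The replicates therefore lay on the same side of 1 on each of the 4 arms, with the widest spread on 3L and 3R. For 3L in replicate 2 the interval of the ratio included 1 (0.456 to 1.05), as it did for 3R in that list (0.884 to 1.61). Over the 4 arms together the ratio was 0.660 in replicate 1 and 0.652 in replicate 2, and the exact two-sided sign-flip permutation test over the 2 replicates gave p = 0.5, the smallest that 2 samples allow.

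The covered length followed the counts. Regions of the combined list covered 4.64% of the bases in the window of X against 15.2% in the rest of X, 5.99% against 16.1% on 3L, and 7.69% against 14.97% on 2L. On 3R they covered 21.7% against 15.3%. In replicate 1 the window of X was covered to 1.22% against 6.97% and that of 3R to 11.9% against 7.65%. In replicate 2 these values were 0.926% against 4.75% on X and 4.91% against 4.15% on 3R.

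Set against the other consecutive 2-Mb windows of the same arm, counted from the centromere, the end window was at the edge of the range of counts in the combined list. The window of 2L had fewer combined-list regions than each of the 10 other windows (87 to 186), that of 3L fewer than each of 11 (122 to 195), and that of X fewer than each of 10 (110 to 209). The 180 regions on 3R were more than in each of 12 other windows (114 to 179), where the next densest had 179. Replicate 1 gave the same order on all 4 arms. In replicate 2 the windows of 2L and X were again lowest, while 1 of 11 other windows on 3L had fewer regions than the end window and 2 of 12 on 3R had more. By covered share the end window of 3R was not the highest in any list. It had 21.7% against 23.0% in the most covered other window in the combined list. In replicate 1 this was 11.9% against 13.7%, and in replicate 2 it was 4.91% against 7.21%. Chance was not assessed for these ranks, since windows of 1 list share their library.

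**Figure D1:**
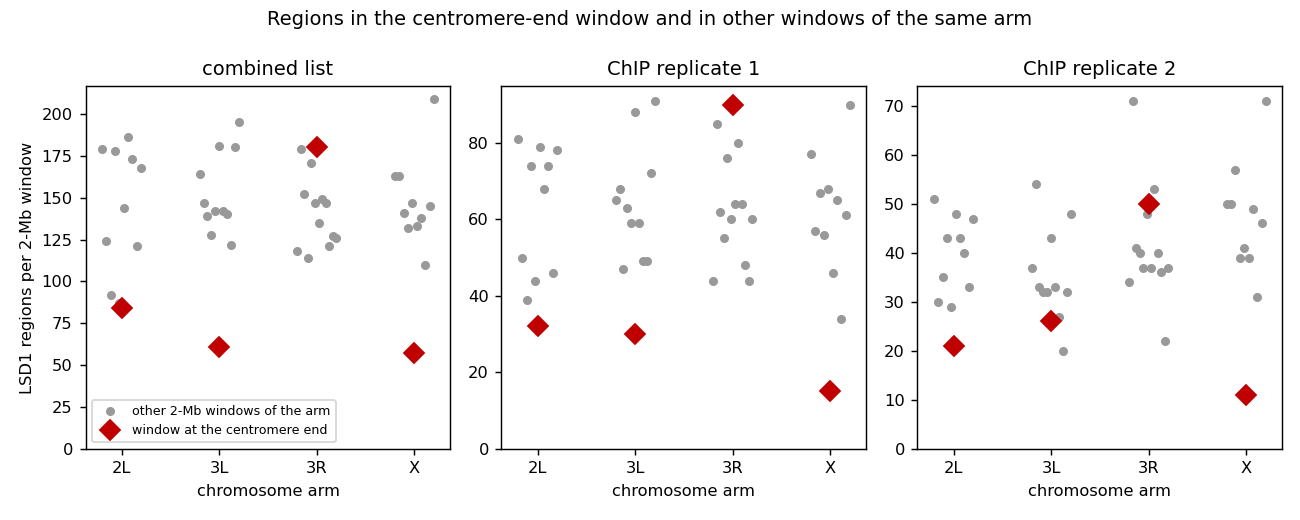
Number of LSD1 regions (y axis) in the 2-Mb window at the centromere end (red diamonds) and in each other consecutive 2-Mb window of the same arm (grey points), by arm (x axis), in the combined list and the 2 replicate lists. The red diamonds of 2L, 3L and X lie at or near the bottom, with 84, 61 and 57 regions in the combined list, and that of 3R at 180 lies at the top.

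Within the windows of 2L and 3L, the combined list thinned out towards the centromere. The innermost 1 Mb of 2L held 24 regions (24.0 per Mb, 15.4 to 35.7) and the next 1 Mb held 60 (60.0 per Mb, 45.8 to 77.2). On 3L there were 12 (12.0 per Mb, 6.20 to 21.0) and 49 (49.0 per Mb, 36.3 to 64.8). Replicate 1 counted 7 and 23 regions on 3L, and replicate 2 counted 4 and 22. On 2L the replicates showed a flatter course, with 15 and 17 regions in replicate 1 and 9 and 12 in replicate 2.

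On X this difference was smaller in the combined list, and the low density reached past the window. The innermost 1 Mb held 26 regions and the next held 31, with 6 and 9 in replicate 1 and 4 and 7 in replicate 2. The inner part of X thus had somewhat fewer regions in each list. The bins of 250 kb between 2 and 2.75 Mb from the end of X held 11, 6 and 13 combined-list regions, and the following bins held 27 and 38. On 2L and 3L the step came sooner in the combined list. There the bin just outside the window, from 2 to 2.25 Mb, held 41 regions on 2L and 33 on 3L. It was the densest of the 20 bins in the first 5 Mb of either arm. In replicate 1 this bin was also the densest on 2L, with 24 regions, but in replicate 2 it held 10 and the densest bin 12. On 3L it was the densest in neither replicate, with 12 regions against 14 in the densest bin in replicate 1. In replicate 2 it held 7 against 12. On 3R the innermost 1 Mb was the denser part, with 99 regions against 81, and in replicate 1 with 63 against 27 and in replicate 2 with 36 against 14.

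**Figure D2:**
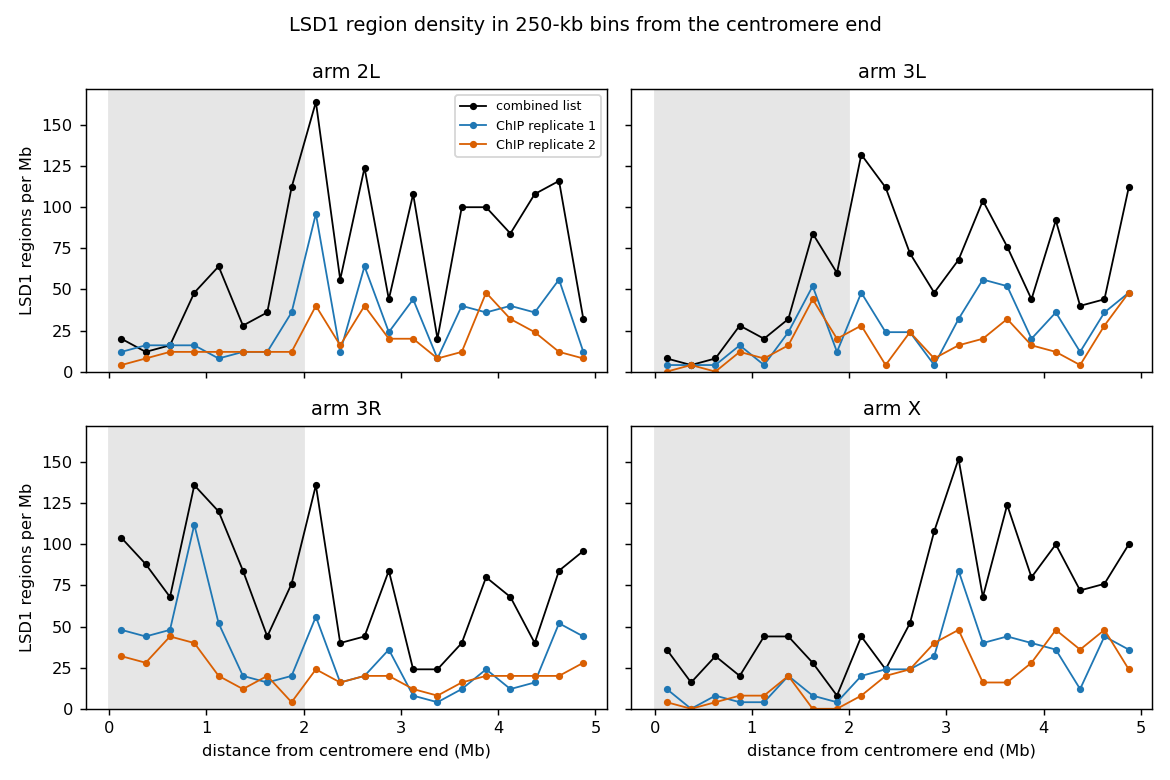
LSD1 regions per Mb (y axis) in bins of 250 kb against the distance from the centromere end (x axis, Mb) for 4 arms, with the 2-Mb window shaded, in the combined list (black), replicate 1 (blue) and replicate 2 (orange). On 2L and 3L the black line rises unevenly through the window to 164 and 132 per Mb (41 and 33 regions) in the bin just outside. On X it stays low until about 2.75 Mb, and on 3R it is high from the first bin.

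The innermost 500 kb compared with the separately assembled heterochromatic sequences as follows. On 2L this stretch had 8 regions (16.0 per Mb, 6.91 to 31.5), and the sequence 2LHet had 13.6 per Mb (4.40 to 31.6). On 3L it had 3 regions (6.00 per Mb, 1.24 to 17.5), and 3LHet had 8.22 (5.09 to 12.6). For X the values were 13 regions (26.0 per Mb, 13.8 to 44.5) and 29.4 per Mb on XHet (10.8 to 64.0). On these 3 arms each density thus lay within the interval of the other. On 3R the stretch had 48 regions (96.0 per Mb, 70.8 to 127.3) against 8.74 per Mb on 3RHet (5.48 to 13.2). The assembled arm 3R of release 5 thus started with densely called sequence, and its first combined-list region, 3R:4-2232 at 1.55-fold, began 3 bases from the end. That region was held by replicate 2, at 1.59-fold, and had no counterpart in replicate 1.

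Between the regions lay long stretches without a called region in the combined list. The median spacing, from the end of a region to the start of the next, was 7.65 kb in the window of 2L against 4.12 kb in the rest of the arm, 8.60 against 3.59 kb on 3L, 10.8 against 4.32 kb on X and 3.70 against 4.81 kb on 3R. On 3R the interval of the window (2.31 to 6.12 kb) included the value in the rest. Both replicates had the same order on 2L, X and 3R. On 3L replicate 1 had 15.3 against 7.67 kb, but replicate 2 had 23.9 against 25.8 kb. Spacings over 100 kb made up 1.71% of all spacings in the combined list. The windows held 15 of them among 378 spacings, of which 4 were on 2L, 5 on 3L, 6 on X and 0 on 3R. They took up 35.0% of the window of 2L, 53.8% of that of 3L and 48.9% of that of X, against 15.0%, 8.72% and 9.91% of the rest of these arms. In replicate 1 such spacings took up 58.8% against 41.9% on 2L, 60.8% against 42.0% on 3L and 79.7% against 38.7% on X. In replicate 2 the contrast was smaller on 2L and X, at 57.3% against 49.9% and 54.6% against 44.3%. On 3L it was reversed in that list, at 51.9% against 55.4%. In the combined list the longest stretch measured 353.9 kb in the window of 3L against 193.6 kb in the rest of that arm, and 297.5 against 177.9 kb on X. On 2L and 3R the order was reversed, with 220.0 against 294.6 kb and 65.7 against 173.6 kb. The 353.9 kb on 3L were 3L:24068283-24422173. Next in the windows came X:21495767-21793223 with 297.5 kb and 3L:23722043-24001263 with 279.2 kb. Of the 15 stretches, 11 held no base called in either replicate list. Replicate 1 had 2 regions lying wholly inside them and replicate 2 had 1. In the windows the combined list held 164 of 167 regions of replicate 1 and 107 of 108 of replicate 2. Its gaps were thus largely bound to be empty in those lists, so this is not separate support.

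The enrichment of a typical region was shallow and close to that of the rest of the arm. The authors' score lies on a log2 scale, and 2 to the power of the score is given here as fold. It describes and ranks regions within a list. In the combined list the median was 1.32-fold in the window of 2L against 1.34-fold in the rest, 1.38 against 1.34 on 3L, 1.33 against 1.34 on 3R and 1.35 against 1.40 on X. Arms thus differed in direction. On X the median was lower in all lists: replicate 1 had 1.47-fold in the window and 1.62-fold outside it (scores differing by -0.14), and replicate 2 had 1.54-fold and 1.63-fold (by -0.08). For 2L, replicate 1 had 1.515-fold and 1.526-fold, while replicate 2 had 1.72-fold and 1.53-fold. For 3L, replicate 1 had 1.503-fold and 1.529-fold, while replicate 2 had 1.60-fold and 1.54-fold, so the replicates pointed opposite ways on both arms. Over the 4 arms the score difference was -0.02 in replicate 1 and 0.01 in replicate 2 (exact two-sided sign-flip permutation p = 1, n = 2).

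The share of strong regions differed among the arms more than the median. Over the whole combined list 4.56% of regions exceeded 2-fold. At the centromere ends 23 of 382 did, or 6.02% (exact binomial interval 3.85 to 8.90%), against 3.45% in the rest of the arms. This difference of 2.57 percentage points was 0.620 without 3L. Of the 23, 9 lay on 3L (14.8% of its members, 6.98 to 26.2%, against 2.63% in the rest of 3L) and 8 on 2L (9.52%, 4.20 to 17.9%, against 4.11%). Another 4 lay on 3R (2.22%, 0.609 to 5.59%, against 2.46%) and 2 on X (3.51%, 0.428 to 12.1%, against 4.93%). In the replicate lists, where 9.62% and 15.2% of all regions exceeded 2-fold, the windows of 2L and 3L also had larger shares than the rest of their arms. On 2L these were 7 of 32 regions in replicate 1 (21.9%, exact binomial interval 9.28 to 40.0%, against 9.71%). In replicate 2 they were 7 of 21 (33.3%, 14.6 to 57.0%, against 16.5%). On 3L they were 6 of 30 (20.0%, 7.71 to 38.6%, against 6.17%) and 5 of 26 (19.2%, 6.55 to 39.4%, against 12.8%). Except on 3L in replicate 1, these intervals included the share in the rest of the arm. On 3R the shares were smaller than in the rest, at 3 of 90 (3.33%, 0.693 to 9.43%, against 6.44%) and 3 of 50 (6.00%, 1.25 to 16.5%, against 12.8%). On X 0 of 15 and 1 of 11 regions (0.230 to 41.3%) exceeded 2-fold, against 12.8% and 15.1% in the rest of X. The shares on 3R and X rest on few regions, and the intervals given for them included the share in the rest.

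The 23 strong regions were of 2 kinds. Both replicates held 14 of them, and these were between 2371 and 4751 bp wide, with a median of 2823 bp. Neither replicate held the other 9, which were between 1001 and 1175 bp wide, below the narrowest region of either replicate list (1301 bp). None was held by 1 replicate. The scores are logs of a constant times a ratio of whole numbers in lowest terms. For the 9 narrow regions the second number, which stands in the place of the input, was between 2 and 40 with a median of 12, and for the 14 wide ones it was between 32 and 1545 with a median of 715. Before reduction each may have been larger, and the part of low numbers in these scores was not tested. In the rest of the arms, where 228 regions exceeded 2-fold, 210 were held by both replicates and 17 by neither. Strong regions that both replicates held were 8.33% of the members on 2L and 8.20% on 3L, against 3.98% and 2.46% in the rest of these arms, 1.11% on 3R and 0 of 57 on X, which allows a share of up to 5.26% (3 counts of 57). Over the whole combined list this share was 3.59%. By count, such regions were 7 in the 2 Mb of 2L against 61 in the other 21.0 Mb. On 3L they were 5 in 2 Mb against 43 in the other 22.5 Mb. The shares are of called regions, so they also depend on how many weaker regions were called.

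The highest 2 scores of all members belonged to narrow regions on 3L. The first, 3L:23356060-23357156, was 1097 bp wide and enriched 9.56-fold, with the ratio 9 to 2. The second, 3L:23661960-23662960, was 1001 bp wide and enriched 7.44-fold, with the ratio 7 to 2. Neither had a counterpart in a replicate list. The second lay 335 bp before 3L:23663296-23665872, a region of 2577 bp that both replicates held: its combined fold was 5.05, and replicates 1 and 2 gave 6.35 and 8.32. These neighbours stood 880.3 and 881.6 kb from the end, between an empty stretch of 203.4 kb on one side and, beyond 3L:23718110-23722042, one of 279.2 kb on the other. Other narrow regions among the highest 10 were 3L:24422174-24423324 (3.99-fold), 3R:435324-436338 (3.37-fold) and 2L:21048414-21049440 (3.28-fold).

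**Figure D3:**
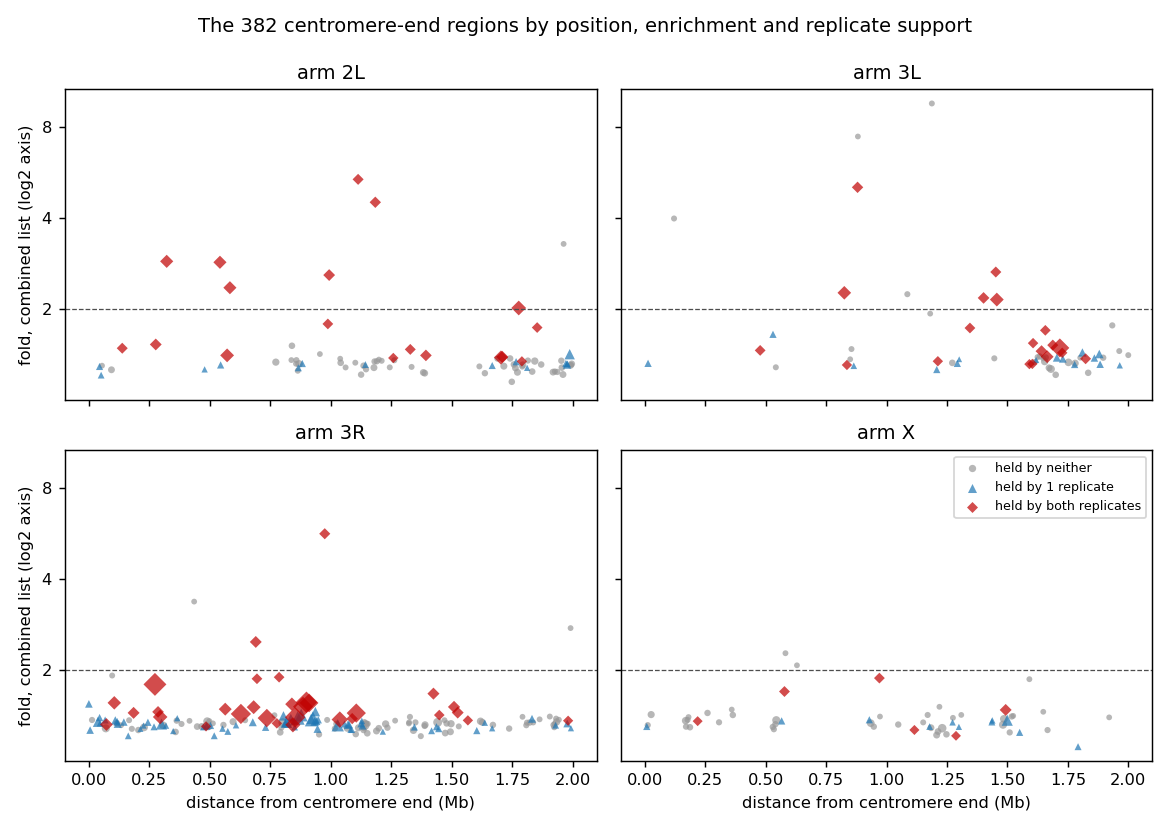
The 382 centromere-end regions by distance from the centromere end (x axis, Mb) and fold in the combined list (y axis, log2 axis), for each arm, coloured by whether both, 1 or neither of the replicate lists overlapped them, with marker area growing with width. Above the dashed line at 2-fold lie 14 regions held by both replicates and 9 small grey points held by neither, whereas 17 of the 19 regions of 5 kb or more lie on 3R.

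On 2L, 7 of the 8 strong regions were held by both replicates. The strongest was 2L:21898228-21900598, 2371 bp wide and 1113 kb from the end, whose combined fold was 5.37, with 5.20 and 5.59 in replicates 1 and 2 (folds of a region are given in this order from here on). Next was 2L:21827146-21829696, at 4.51-fold, 4.70-fold and 4.64-fold. Both were also called over nearly the same bases, with replicate regions covering between 90.1% and 100% of them. The third, 2L:22689814-22693446, lay only 321.7 kb from the end and was enriched 2.88-fold, 2.91-fold and 3.23-fold. A spacing of 155.5 kb, in which replicate 1 called 1 region, lay on one side of it and a spacing of 41.6 kb on the other. The widest member on 2L, 2L:21234032-21238782, spanned 4751 bp at 2.02-fold, 2.26-fold and 2.44-fold, and replicate 2 covered 55.6% of it.

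Besides the region described above, the strongest members on 3L that both replicates held were 3L:23091628-23094004, at 2.65-fold, 2.53-fold and 2.98-fold, and 3L:23718110-23722042, at 2.26-fold, 2.29-fold and 2.30-fold. The widest was 3L:22826826-22835044, 8219 bp long at 1.49-fold, in which each replicate called 2 regions that covered 58.2% and 52.9% of it. The member nearest the end of 3L was 3L:24529660-24531658, 13.9 kb from it, at 1.32-fold, held by replicate 1 at 1.44-fold and not by replicate 2. On 2L the nearest was 2L:22967482-22969330, 44.1 kb from the end, at 1.29-fold, again held by replicate 1 alone, at 1.52-fold.

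On X no member that both replicates held exceeded 2-fold in the combined list. The highest of them, X:21452248-21454476, was enriched 1.88-fold, 1.87-fold and 2.02-fold. After it came X:21844832-21847128 at 1.70-fold, 1.74-fold and 1.76-fold and X:20930044-20932922 at 1.48-fold, 1.44-fold and 1.49-fold. The widest, X:20923556-20929000, spanned 5445 bp at 1.36-fold and had regions in replicate 1 only. The nearest to the end, X:22414282-22416188, lay 8.55 kb from it at 1.30-fold and was held by replicate 1 at 1.45-fold. The median width on X was 1417 bp in the window (interval 1285 to 1721 bp) against 1682 bp in the rest of the arm. Replicate lists showed the same order, with 1532 (1368 to 1868) against 1952 bp in replicate 1 and 1542 (1334 to 2120) against 1901 bp in replicate 2. Only the interval of replicate 1 left out the value in the rest. Other arms did not share this order clearly. In the combined list the median was 1640 against 1653 bp on 2L, 1947 against 1635 bp on 3L and 1803 against 1633 bp on 3R.

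On 3R the strongest member, 3R:975322-977732, had a combined fold of 5.64. In replicates 1 and 2 it stood at 4.45-fold and 7.21-fold. It was followed by 3R:690100-692952, at 2.48-fold, 2.50-fold and 2.91-fold, and by 3R:786672-788860, at 1.89-fold, 1.94-fold and 1.89-fold. Besides these, 3R held most of the broad members. Regions of 5 kb or more made up 4.71% of the combined list, and 17 of the 180 members on 3R were that wide (9.44%, against 5.30% in the rest of 3R), compared with 1 of 61 on 3L, 1 of 57 on X and 0 of 84 on 2L. The widest, 3R:273164-285446, spanned 12.3 kb at 1.79-fold, 2.00-fold and 2.16-fold.

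Of these 17 broad regions, 9 stood together. Within 3R:843620-933484, a stretch of 89.9 kb singled out after its values were seen, 9 members of 5 kb or more followed each other at less than 10 kb, enriched between 1.32-fold and 1.56-fold. Combined-list regions covered 84.6% of the stretch. Replicate 1 called 17 regions over 70.8% of it, and replicate 2 called 5 regions over 13.7%. Both replicates held 5 of the 9 members and replicate 1 alone held 4. Over all 17 broad members on 3R the median share of bases called was 85.8% in replicate 1 and 21.4% in replicate 2. The 97 broad regions in the rest of 3R had 84.7% and 31.0%, so less coverage in replicate 2 was found along the whole arm. In 16 of the 17 broad members replicate 1 called more bases than replicate 2.

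Support by the replicate lists was asked by overlap of at least 1 bp. Over the whole combined list 47.9% of regions were held by at least 1 replicate, 18.3% by both and 52.1% by neither. For the 382 members the shares were 47.1% (180 regions), 19.4% (74) and 52.9% (202), near these values and near the 47.3%, 17.5% and 52.7% in the rest of the arms. The arms moved in different directions. On X 17 of 57 members were held by at least 1 replicate (29.8%, exact binomial interval 18.4 to 43.4%, against 48.4% in the rest of X). On 2L 32 of 84 were held (38.1%, 27.7 to 49.3%, against 49.8%). On 3L it was 34 of 61 (55.7%, 42.4 to 68.5%, against 44.6%) and on 3R 97 of 180 (53.9%, 46.3 to 61.3%, against 47.1%). Members held by both were 31.1% on 3L against 15.0% in the rest of that arm, 21.4% against 18.1% on 2L, 17.2% against 18.3% on 3R and 10.5% against 18.9% on X.

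Narrow regions were seldom held by a replicate (8.85% of 113 members under 1301 bp, against 10.5% of 2069 in the rest of the arms). Their share among the members moved with the arms. Regions narrower than 1301 bp were 30.9% of the combined list, 36.8% of the members on X, 29.5% of those on 3L, 28.3% of those on 3R and 27.4% of those on 2L. Among members of at least that width, 44.4% on X (27.9 to 61.9%) and 52.5% on 2L (39.3 to 65.4%) were held by a replicate, against 65.4% and 66.6% in the rest of these arms. On 3L and 3R 74.4% and 69.8% were held, against 60.9% and 64.0%. The lower support on X and 2L was thus also present among the wider regions.

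**Figure D4:**
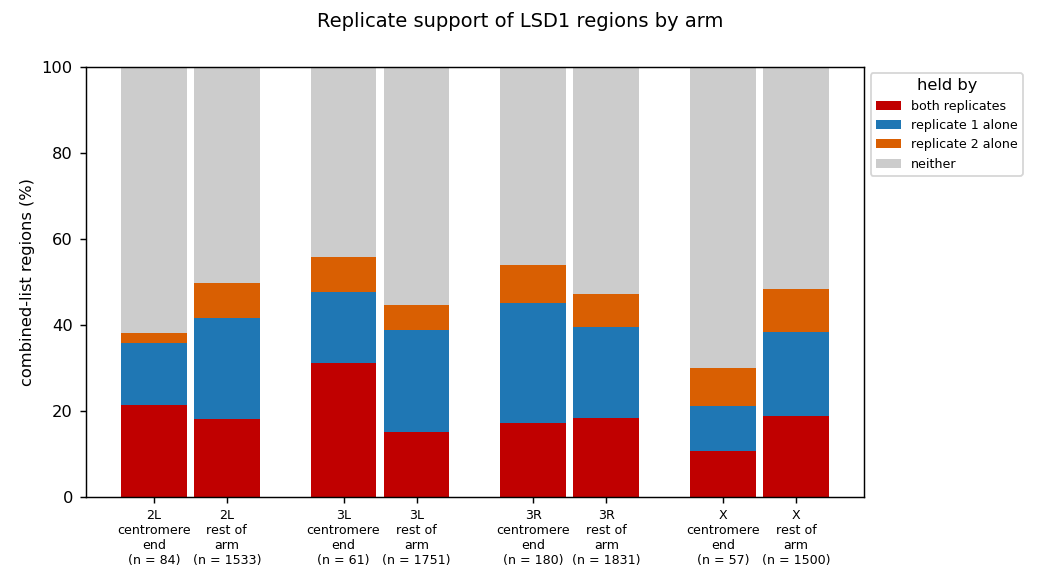
Share of combined-list regions (y axis, %) overlapped by both replicate lists, by replicate 1 alone, by replicate 2 alone or by neither, in the centromere-end window and in the rest of each arm (x axis, with numbers of regions). The grey part is largest in the window of X, where 70.2% of 57 regions were held by neither replicate, and the red part is largest in that of 3L, at 31.1%.

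Read from the replicate lists, overlap was most frequent on 2L and 3L. Of all regions of replicate 1, 43.7% were held by replicate 2, and of all regions of replicate 2, 68.6% were held by replicate 1. In the window of 3L 20 of 30 regions of replicate 1 were shared (66.7%, exact binomial interval 47.2 to 82.7%, against 37.7% in the rest of 3L), and in that of 2L 19 of 32 (59.4%, 40.6 to 76.3%, against 42.9%). On 3R 30 of 90 were shared (33.3%, 23.7 to 44.1%, against 44.6%) and on X 6 of 15 (40.0%, 16.3 to 67.7%, against 46.6%). Of replicate 2, 21 of 26 regions were shared on 3L (80.8%, 60.6 to 93.4%, against 71.3%) and 18 of 21 on 2L (85.7%, 63.7 to 97.0%, against 68.7%). On 3R 32 of 50 were shared (64.0%, 49.2 to 77.1%, against 69.8%) and on X 6 of 11 (54.5%, 23.4 to 83.3%, against 62.7%). Each of these intervals of replicate 2 included the share in the rest of the arm. The combined list held 164 of the 167 regions of replicate 1 in the windows and 107 of the 108 of replicate 2. In the rest of the arms it likewise held nearly all, 2773 of 2844 and 1807 of 1860.

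Where both replicates held a member, they ranked enrichment alike. Their scores correlated with Spearman's rho of 0.725 across the 74 such members, and across the 1158 such regions in the rest of the arms rho was 0.712. Within the arms rho was 0.882 on 2L (18 members), 0.768 on 3L (19) and 0.535 on 3R (31). These values describe regions that share their libraries and are given without a test. Median enrichment of the 74 members was 1.58-fold in replicate 1, 1.60-fold in replicate 2 and 1.48-fold in the combined list. The medians in the rest of the arms were 1.62-fold, 1.61-fold and 1.497-fold.

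**Figure D5:**
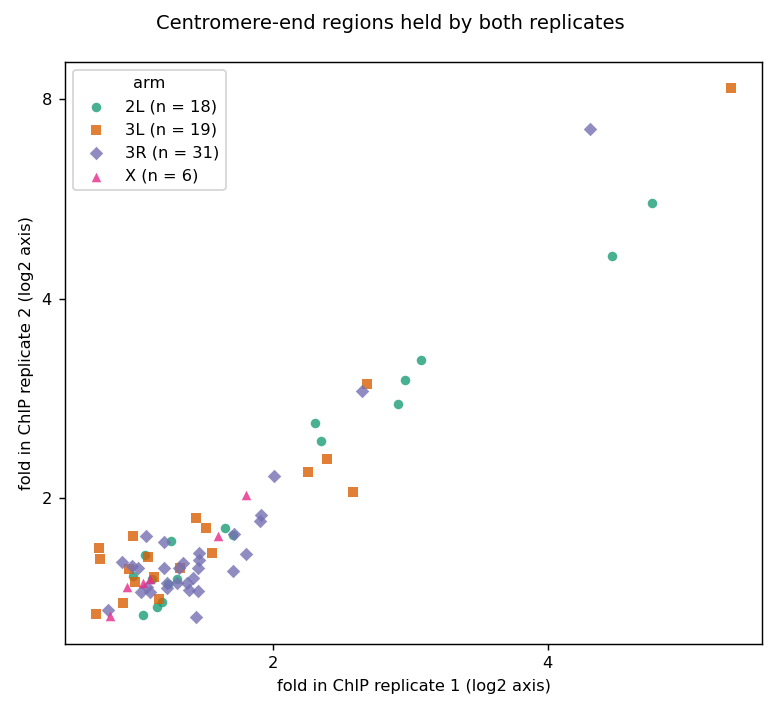
Fold in replicate 1 (x axis) against fold in replicate 2 (y axis), both on log2 axes, for the 74 centromere-end regions held by both replicate lists, by arm. Points above 2-fold broadly rise together on 2L and 3L, and the highest region on 3R lies at 4.45-fold and 7.21-fold. Folds are on the scale of each list.

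The second whole numbers of the scores, per kb of called region, were compared by upper quartile and by median, which did not share a single direction. What these numbers count is not stated. They come from ratios in lowest terms, so each may have been larger before reduction. Their upper quartile per kb in the combined list was 284.5 in the window of 2L against 275.8 in the rest, 270.5 against 270.1 on 3L, 283.8 against 273.1 on 3R and 218.3 against 206.9 on X. In replicate 1 it was also higher in the window than in the rest on each of the 4 arms, and in replicate 2 it was so on 2L and X and lower on 3L (150.0 against 154.4) and 3R (155.3 against 156.5). The median went the other way on some arms: in the combined list it was 212.6 against 234.1 on 2L and 159.2 against 224.3 on 3L, but 255.3 against 232.1 on 3R and 182.8 against 169.1 on X. It was also lower in the window of 3L in replicate 1 (97.3 against 105.2) and in that of 2L in replicate 2 (90.9 against 128.1). These numbers exist only where a region was called, so they say nothing of the depth in the empty stretches.

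Across the outer border of the windows, away from the centromere, the counts in the combined list rose. The bins just inside and just outside held 28 and 41 regions on 2L and 15 and 33 on 3L. On 3R these bins held 19 and 34, and on X they held 2 and 11. The fold of the single region nearest to this border on each side changed little. The regions just inside and just outside were enriched 1.32-fold and 1.30-fold on 2L, 1.41-fold and 1.38-fold on 3L, and 1.28-fold and 1.27-fold on 3R. On X they were 1.39-fold and 1.34-fold, 1921 kb and 2028 kb from the end. Both replicates held the outer region on X and neither held the one inside.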

How the data were processed

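Per the submitters' processing notes, reads were mapped with Bowtie 0.12.7, and per the file headers the genome was FlyBase release 5. The calling program, its threshold and the making of the combined list were not given in the sources used here. The authors deposited a start, an end and 1 score per region. The scores were handled as log2 values: each deposited score is log2 of a whole-number ratio multiplied by its list's constant (relative tolerance 1e-12, denominators up to 20000). That constant differed (combined 2.13, replicate 1 1.80, replicate 2 2.51), so scores were compared within a list only. What the whole numbers count is not stated.

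Groups and replicate numbers came from the sample titles. The 2 inputs have no list of their own. A region belonged to the segment that held its start, and overlap meant at least 1 bp. Covered bases were counted by position. Intervals are exact at 95% (Poisson for densities, conditional binomial for density ratios, Clopper-Pearson for shares), except that the limit for a count of 0 is 3 counts of the total. Intervals of medians are 95% binomial order-statistic intervals. Regions of 1 list are not replicates, so no test was run over regions, and differences between segments are descriptions. Per-replicate values were compared by exact sign-flip permutation over the 2 ChIP samples. Named were, by rule, the highest 3 members per arm held by both replicates, the widest, the nearest to the centromere end, those at the window edge, and the highest 10 of all; other regions and stretches, and the limits of 2-fold, 5 kb, 100 kb, 500 kb and 10 kb, were chosen with values known. The members were also chosen with earlier results of these data known. Procedures were tested on simulated data. No genome sequence or annotation of release 5 was used here, and the only gene table follows release 6, so no gene is named. Tools were scipy 1.17.1, numpy 2.4.6, matplotlib 3.10.9 and pandas 2.3.3 under Python 3.11.15.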

Additional observations from a re-analysis of the deposited data

How the results depend on the processing

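Of 97 alternatives to 10 results, 71 moved the value by less than its interval or, for the per-replicate results, kept its direction, and 82 kept the direction. Over all 4 arms the density ratio of 0.649 was 0.553 with a window of 1 Mb, 0.799 with 3 Mb, 0.549 among regions scoring over their list's median, 0.741 without 3L, 0.450 without 3R and 0.736 without X. The ratio of covered shares of 0.651 was 0.785 with 3 Mb, 0.576 among the higher scores, 0.750 without 3L, 0.396 without 3R and 0.765 without X. Both stayed below 1 under each alternative run. The spacing difference of 2077 bp was 530 bp with 3 Mb, 12279 bp among the higher scores and 4706 bp without 3R. The width difference of 29 bp was 263 bp with 1 Mb, and it was -24 bp with regions closer than 200 bp merged and -27 bp without 3R. The score difference of -0.0133 was -0.00195 with 1 Mb, 0.00597 among the higher scores, -0.0277 without 3L and -0.00491 without X. The difference of 2.57 percentage points above 2-fold was 0.282 with 3 Mb and 5.58 without 3R. Its interval of 0.408 to 5.45 included 0 with 3 Mb (-1.01 to 1.98), without 3L (0.620, -1.34 to 3.47) and without 2L (1.79, -0.402 to 4.92). The difference of -0.227 points in regions held by at least 1 replicate was 11.3 with 1 Mb and -6.36 without 3R, and it changed sign under 8 of 13 alternatives. The per-replicate score difference of -0.00639 was 0.00408 with 1 Mb, 0.0169 without X, and between -0.0248 and 0.0120 when 1 replicate was left out. The cause of these shifts was not tested. No paired analysis was possible because the inputs have no list of their own. Depth is unknown, so no value could be weighed by it.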
